A study of Homo sapiens with 6 samples.

Results

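Celastrol-treated SKM-1 cells carried less RNA for part of the machinery that licenses replication origins. Of the 10 licensing genes examined, 4 fell and none rose past the threshold, where 14.2% of all genes tested fell and 15.3% rose. With the levels rescaled to TPM (transcripts scaled to a common library total), 1 was lower and 3 were higher. CDT1, the loader that brings the MCM helicase to origins, was at 70.3 ± 10.3 FPKM with celastrol and 134.2 ± 8.51 FPKM with DMSO (SD, n = 3 each). ORC1, MCM2 and MCM4 fell by smaller amounts. MCM3, MCM5, MCM6, MCM7 and CDC6 did not pass the threshold, and neither did GMNN, the gene of the CDT1 inhibitor geminin, whose celastrol libraries all lay above its DMSO libraries.

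The 10 genes were chosen by name as the core of origin licensing (MCM2, MCM3, MCM4, MCM5, MCM6, MCM7, CDT1, CDC6, GMNN and ORC1), and all 10 were found among the 58735 genes listed. SKM-1 is a human cell line established from acute myeloid leukaemia. The first group was SKM-1 treated with celastrol, a triterpenoid from thunder god vine, and the second was SKM-1 given DMSO, the solvent. Both were sampled at 48 h, with 3 bulk RNA libraries each. The labels carry no celastrol dose and do not say whether the libraries came from separate cultures, so p-values reflect library-to-library spread that may be technical. Levels are the authors' FPKM (fragments counted per gene, scaled to gene length and library total). In such bulk samples, fewer cells in a cell cycle phase and less RNA per cell cannot be told apart.

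Licensing marks each replication origin as ready for use once per cell cycle. The origin recognition complex, of which ORC1 is a subunit, binds the origin and recruits CDC6, and CDT1 then delivers the ring of MCM2 to MCM7 that later becomes the core of the replicative helicase. Geminin, encoded by GMNN, binds CDT1 in S and G2 phase and so blocks a further round of loading, while CDT1 protein is also degraded by ubiquitin ligases built on CUL4 and SKP2. Several of these genes are textbook targets of the E2F transcription factors, so their promoters are shown first.

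Promoter windows from RefSeq (GRCh38.p14, 250 bases before to 50 after the annotated start) were used for 8 of the 10 genes, matched by symbol. No window was used for MCM4, which fell, or for MCM5. The windows were searched on both strands for 4 words of the E2F site (TTTCCCGC, TTTCGCGC, TTTGCCGC and TTTGGCGC). At least 1 word stood in a window of 7 of these 8 genes, against 3.315% of all 35116 windows in the table, and the gene without one was ORC1. The 7 are counted by gene, with 3 windows for MCM7 and 2 for GMNN, and the percentage by window. Shown are 3 genes that fell with celastrol (CDT1, ORC1, MCM2) and 2 that did not pass the threshold (CDC6 and the second of the GMNN windows). Capitals mark the E2F words, as read on the gene's own strand or as their reverse complement. In MCM2, words on the 2 strands overlap.
CDT1 (chr16:88803539-88803838, plus strand): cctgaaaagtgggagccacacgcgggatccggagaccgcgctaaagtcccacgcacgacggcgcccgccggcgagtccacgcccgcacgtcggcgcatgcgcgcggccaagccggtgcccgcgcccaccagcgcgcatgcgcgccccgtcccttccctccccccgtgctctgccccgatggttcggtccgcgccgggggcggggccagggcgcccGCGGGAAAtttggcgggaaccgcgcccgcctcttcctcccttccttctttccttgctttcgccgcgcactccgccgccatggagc
ORC1 (chr1:52404374-52404673, minus strand): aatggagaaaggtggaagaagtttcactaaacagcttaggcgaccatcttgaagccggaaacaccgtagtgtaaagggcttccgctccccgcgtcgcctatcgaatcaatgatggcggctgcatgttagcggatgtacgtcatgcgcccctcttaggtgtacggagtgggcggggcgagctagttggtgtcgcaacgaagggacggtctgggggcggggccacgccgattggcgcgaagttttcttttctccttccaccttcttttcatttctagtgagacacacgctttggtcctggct
MCM2 (chr3:127598161-127598460, plus strand): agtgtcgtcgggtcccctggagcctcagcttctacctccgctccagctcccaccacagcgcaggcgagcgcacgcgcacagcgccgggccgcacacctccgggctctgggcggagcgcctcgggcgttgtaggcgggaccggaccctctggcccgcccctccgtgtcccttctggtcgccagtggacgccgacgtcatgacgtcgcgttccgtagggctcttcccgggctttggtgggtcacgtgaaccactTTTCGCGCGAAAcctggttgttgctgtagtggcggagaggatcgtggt
CDC6 (chr17:40287629-40287928, plus strand): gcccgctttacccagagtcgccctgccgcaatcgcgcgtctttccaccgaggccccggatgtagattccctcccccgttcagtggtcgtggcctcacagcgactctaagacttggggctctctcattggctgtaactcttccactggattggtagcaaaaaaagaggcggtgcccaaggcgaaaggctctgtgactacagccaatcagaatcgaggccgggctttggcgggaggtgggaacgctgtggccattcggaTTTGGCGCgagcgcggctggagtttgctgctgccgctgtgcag
GMNN (chr6:24775163-24775462, plus strand): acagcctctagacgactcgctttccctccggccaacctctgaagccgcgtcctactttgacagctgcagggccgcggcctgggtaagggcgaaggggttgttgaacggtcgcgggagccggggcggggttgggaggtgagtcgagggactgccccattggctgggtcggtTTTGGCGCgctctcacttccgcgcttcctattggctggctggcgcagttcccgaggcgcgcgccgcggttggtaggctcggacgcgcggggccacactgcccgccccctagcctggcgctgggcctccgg

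The words lay at -35 from the start in CDT1, at 8 in CDC6, at -80 in GMNN, and at 3 and 7 in MCM2. MCM3 and MCM7 had 2 words each and MCM6 had 4. Among the genes searched, those with a word therefore stood both among those that fell (CDT1, MCM2) and among those that did not pass the threshold (CDC6, MCM3, MCM6, MCM7, GMNN). MCM4 and MCM5 were not part of this comparison. CCAAT, the core of the NF-Y site, occurred in 34.61% of all windows, in windows of CDC6, ORC1, GMNN, MCM3, MCM6 and MCM7 but not in the CDT1 or MCM2 window. TTTGAA, the word of the CHR element, occurred in 15.16% of all windows and in none of the licensing genes' windows searched. A match describes letters in the window and is no evidence of binding.

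The libraries held 15231742 to 16231066 reads over the listed genes with celastrol and 13549187 to 15410904 with DMSO, which gave each licensing gene between 943 and 14006 reads in every library. Mitochondrial transcripts took 1.37% to 1.85% of reads with celastrol and 5.44% to 5.65% with DMSO. The marker lists of the label check also moved with the groups. Erythroid markers summed to 697.9 to 764.8 FPKM with celastrol and 824 to 878.3 FPKM with DMSO, with 9 of 14 lower and none higher. GATA1 and RHAG were abundant, and GATA1 was among the 9. RHAG averaged 289.6 FPKM with celastrol and 261.3 FPKM with DMSO and did not pass the threshold. Myeloid markers summed to 65.67 to 71.32 FPKM with celastrol and 84.13 to 93.46 FPKM with DMSO, with 3 of 7 tested genes lower and none higher. Over all genes tested, 14.2% were lower and 15.3% higher. SPI1, PTPRC, LYZ and AZU1 were present, and ITGAM, FCGR1A and CD33 were low but reached a mean of 1 FPKM. CEBPA, ANPEP, MPO, CSF1R, CD14, CSF3R, CD68 and CD4 stayed below that mean. All 14 erythroid markers but 7 of the 15 myeloid markers reached a mean of 1 FPKM, so the myeloid label is only partly matched by these markers. Of the erythroid markers, SLC4A1 and AHSP reached it only through DMSO (means of 2.98 and 4.09 FPKM). With celastrol they averaged 0.347 and 0.3995 FPKM, and both are among the 9 lower. Lymphoid markers summed to 15.42 to 15.91 FPKM with celastrol and 8.424 to 10.44 FPKM with DMSO. Epithelial and stromal markers summed to 288.8 to 324.2 FPKM with celastrol and 260.7 to 299 FPKM with DMSO. Most of that sum was KRT8, KRT18 and KRT19, while CDH1, COL1A1, COL1A2 and PDGFRB were near 0. KRT8 and KRT18 were higher with celastrol, and EPCAM and KRT19 were lower. The part of these shifts in the licensing results was not tested.

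The fall in CDT1 RNA was the largest change among the 10 genes. CDT1 (ENSG00000167513, chr16:88803213-88809258, plus strand, GRCh38) had 81.0, 69.4 and 60.5 FPKM in the celastrol libraries, against 142.5, 125.5 and 134.6 FPKM in the DMSO libraries. Every celastrol library lay well below every DMSO library. Its level was 1.91-fold lower, a log2 fold change of -0.94 (SE 0.11, 95% interval -1.20 to -0.68, adjusted p = 0.00121 by limma over 12685 genes). Of the genes tested, 408 (3.22%) had a log2 fold change as low or lower. Among all genes tested, 14.2% fell and 15.3% rose at the same threshold, an adjusted p of 0.05. The CDT1 call held under all 17 alternative settings, with log2 fold changes from -1.05 to -0.70.

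ORC1, the largest subunit of the origin recognition complex and the one whose level changes through the human cell cycle, also fell. ORC1 (ENSG00000085840, chr1:52372829-52404459, minus strand) had 36.3, 31.7 and 26.9 FPKM with celastrol, against 44.3, 45.4 and 46.7 FPKM with DMSO. The groups did not overlap, and the celastrol libraries were more scattered than the DMSO libraries (31.7 ± 4.68 and 45.5 ± 1.19 FPKM, SD, n = 3 each). The log2 fold change was -0.53 (SE 0.11, 95% interval -0.78 to -0.28, adjusted p = 0.00986, limma). The call was lost when FPKM were rescaled to TPM (log2 fold change -0.29, adjusted p = 0.0689).

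The other subunits of the complex serve as a comparison within each library. ORC2, ORC3, ORC4, ORC5 and ORC6 did not pass the threshold, with log2 fold changes between -0.16 and 0.12. The ratio of ORC1 to the mean of these 5 genes was 3.74, 3.22 and 2.73 with celastrol, against 4.91, 3.91 and 4.70 with DMSO. No celastrol ratio reached the lowest DMSO ratio (exact permutation test, 2-sided, p = 0.1, the smallest that 3 against 3 libraries allow).

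CDC6, the ATPase that ORC recruits before CDT1 arrives, was nearly level. CDC6 (ENSG00000094804, chr17:40287633-40304657, plus strand) had 19.7, 18.8 and 19.3 FPKM with celastrol, against 19.1, 20.2 and 19.6 FPKM with DMSO. The groups overlapped, and the 95% interval of the log2 fold change of -0.03 ran from -0.18 to 0.12 (adjusted p = 0.78, limma). The loaders thus differed among themselves: CDT1 and ORC1 fell, and CDC6 did not pass the threshold.

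**Figure D1:**
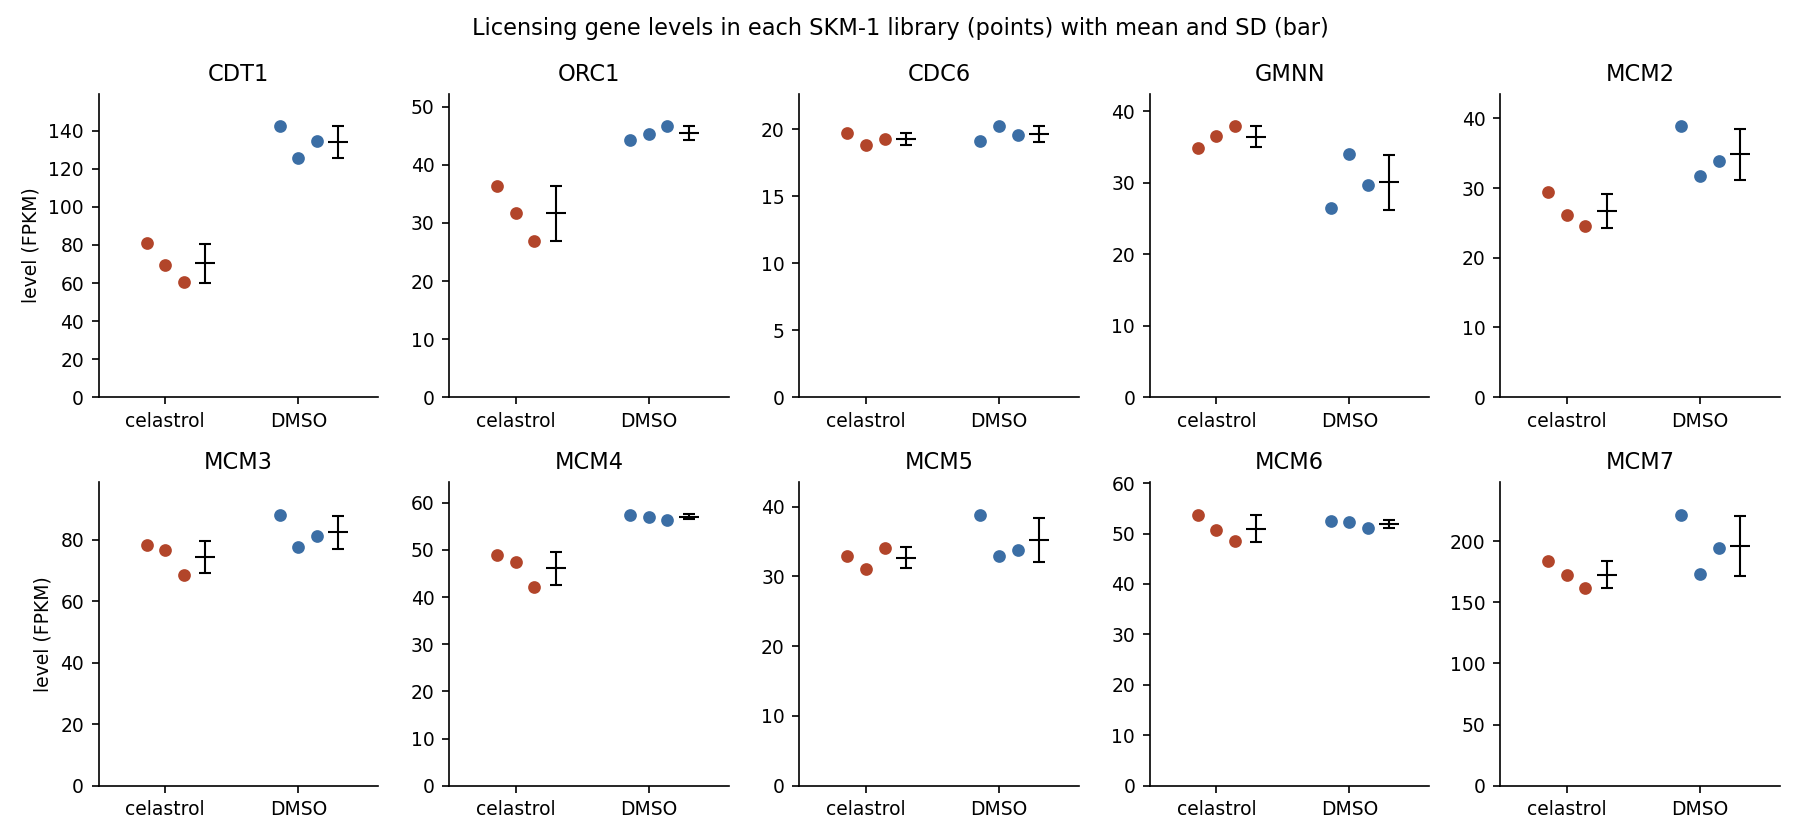
FPKM of each licensing gene (vertical axes, each from 0) in the 3 celastrol libraries (red, left) and the 3 DMSO libraries (blue, right). Points are libraries, with the mean and SD beside them as a black bar. CDT1, ORC1, MCM2 and MCM4 have every celastrol point below every DMSO point, and GMNN has every celastrol point above.

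The inhibitor moved the other way from its target without passing the threshold. GMNN (ENSG00000112312, chr6:24774931-24786099, plus strand) had 34.9, 36.6 and 37.9 FPKM with celastrol, against 26.5, 34.0 and 29.6 FPKM with DMSO. The groups did not overlap, but the highest DMSO library came close to the lowest celastrol library. The log2 fold change was 0.29 (SE 0.10, 95% interval 0.06 to 0.51, adjusted p = 0.0638, limma). GMNN passed the threshold under 6 alternatives, among them limma-voom on recovered reads (0.39, adjusted p = 0.00513), rescaling to TPM (0.53, adjusted p = 0.00588) and leaving out the second DMSO library (adjusted p = 0.0155).

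Within each library the balance of CDT1 to its inhibitor was lower after celastrol. The ratio of CDT1 to GMNN FPKM was 2.32, 1.90 and 1.59 with celastrol, against 5.39, 3.69 and 4.55 with DMSO. These averaged 1.94 ± 0.367 and 4.54 ± 0.849 in celastrol and DMSO libraries (SD, n = 3 each), and the groups did not overlap. The log2 ratio differed by -1.23 (exact permutation test, 2-sided, p = 0.1, the smallest possible here). This ratio cancels any scaling applied to a whole library, and it compares RNA levels, not the proteins. CDT1 already lay lower and GMNN higher in every celastrol library. The separation of the ratio and its p were thus fixed by those levels and are no further support.

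**Figure D2:**
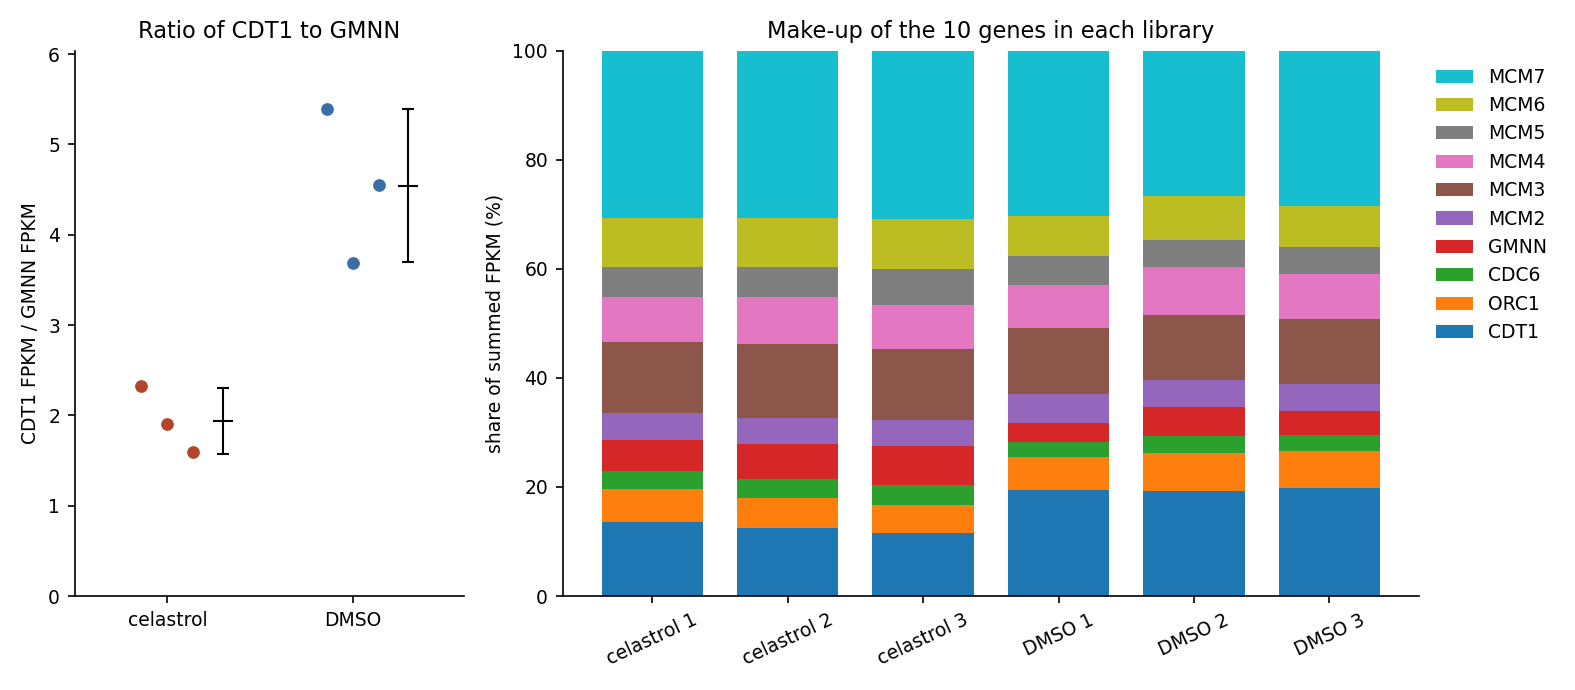
Left, CDT1 FPKM divided by GMNN FPKM in each library (points), with mean and SD as a black bar, celastrol left of DMSO. Right, the share of each licensing gene in their summed FPKM in each library (percent), where CDT1, the lowest block, takes 11.5% to 13.5% with celastrol and 19.3% to 19.8% with DMSO.

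The same held for CDT1 against each of the other 9 genes. Its log2 ratio to every one of them was lower in all celastrol libraries than in any DMSO library. The difference was smallest against ORC1 (-0.41) and largest against GMNN (-1.23). These 9 comparisons share CDT1, and each gave an exact permutation p of 0.1, the smallest possible here, not adjusted over the 9. CDT1 had the largest fall of the 10 genes in these same libraries. Lower mean ratios therefore follow from the changes already given and are no separate support. As a share of the summed FPKM of all 10 genes, CDT1 took 13.5%, 12.4% and 11.5% with celastrol, against 19.5%, 19.3% and 19.8% with DMSO.

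Among the 6 subunits of the MCM ring, 2 fell and 4 did not pass the threshold. MCM2 (ENSG00000073111, chr3:127598223-127622436, plus strand), a subunit that also chaperones histones, had 29.4, 26.2 and 24.6 FPKM with celastrol, against 38.9, 31.8 and 33.9 FPKM with DMSO. The groups did not overlap. The log2 fold change was -0.38 (SE 0.10, 95% interval -0.61 to -0.15, adjusted p = 0.0264, limma). This call was weak: it was lost in 7 of 17 alternatives, 4 of them leaving out the second celastrol library (adjusted p = 0.0846), the third celastrol library (0.0827), the first DMSO library (0.0534) or the third DMSO library (0.0716). The others were testing with no filter on low values (0.0729), scaling to the listed reads (0.0527) and rescaling to TPM (log2 fold change -0.14, adjusted p = 0.263). MCM2 overlaps TPRA1 by 45 bases on the opposite strand and a barely expressed antisense gene by 2331 bases. TPRA1 averaged 6.27 FPKM with celastrol and 4.34 FPKM with DMSO.

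MCM4 (ENSG00000104738, chr8:47960185-47978160, plus strand), one of the ring's catalytic subunits, had 48.9, 47.3 and 42.2 FPKM with celastrol, against 57.5, 57.0 and 56.4 FPKM with DMSO. The DMSO libraries were nearly equal, and all celastrol libraries lay below them. The log2 fold change was -0.31 (SE 0.07, 95% interval -0.48 to -0.13, adjusted p = 0.0188, limma). The call was lost in 4 alternatives, namely without the second celastrol library (adjusted p = 0.0555), without the third DMSO library (0.0701), after scaling to the listed reads (0.0623) and after rescaling to TPM (log2 fold change -0.07, adjusted p = 0.528).

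MCM7 (ENSG00000166508, chr7:100092728-100101940, minus strand), another catalytic subunit and the most abundant licensing transcript, had 184, 172.5 and 161.4 FPKM with celastrol, against 221.8, 172.8 and 194.4 FPKM with DMSO. The second DMSO library lay inside the celastrol range, and the log2 fold change of -0.18 did not pass (95% interval -0.42 to 0.06, adjusted p = 0.219, limma). Its row holds 3 microRNA genes on the same strand (MIR25, MIR93 and MIR106B) and overlaps AP4M1 on the opposite strand by 392 bases.

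MCM3, which pairs with MCM5 in the ring, averaged 74.5 ± 5.27 FPKM with celastrol and 82.5 ± 5.35 FPKM with DMSO (log2 fold change -0.15, 95% interval -0.34 to 0.04). MCM5 averaged 32.7 ± 1.48 FPKM with celastrol and 35.2 ± 3.19 FPKM with DMSO (log2 fold change -0.10, 95% interval -0.30 to 0.09). MCM6 averaged 51.0 ± 2.64 FPKM with celastrol and 52.0 ± 0.779 FPKM with DMSO (log2 fold change -0.03, 95% interval -0.18 to 0.13, SD and n = 3 in each case). The groups overlapped for these 3 genes, and their adjusted p-values were 0.209, 0.377 and 0.781 by limma. MCM3 lies at chr6:52264009-52284881, MCM5 at chr22:35400063-35425430 and MCM6 at chr2:135839626-135876426.

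The summed RNA of the ring overlapped between the groups. MCM2 to MCM7 together had 427, 404 and 379 FPKM with celastrol, against 498, 425 and 451 FPKM with DMSO. The first celastrol library exceeded the second DMSO library, and the log2 difference was -0.18 (exact permutation test, 2-sided, p = 0.2). For each subunit's share of that sum, the design allows no exact permutation p below 0.1. MCM2 took 6.61 ± 0.236% of that sum with celastrol and 7.61 ± 0.18% with DMSO, and MCM6 took 12.6 ± 0.137% with celastrol and 11.4 ± 0.88% with DMSO, with no overlap for either gene (exact permutation p = 0.1 each, not adjusted over the 6 subunits). The shares of MCM3, MCM4, MCM5 and MCM7 overlapped between the groups, and MCM7 took 42.8% in both.

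**Figure D3:**
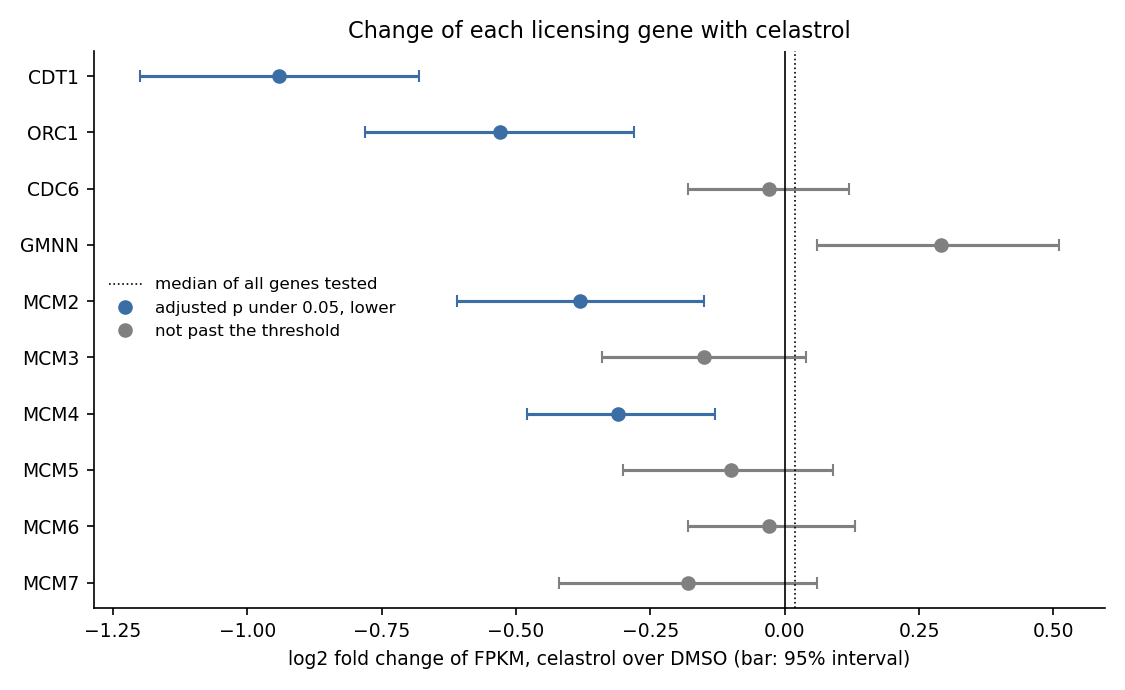
Log2 fold change of FPKM, celastrol over DMSO (horizontal axis), for each licensing gene, with its 95% interval as a bar. Blue points passed an adjusted p of 0.05 and grey points did not; the dotted line is the median of all 12685 genes tested, 0.02. CDT1 at -0.94 stands farthest from 0, and the intervals of CDC6, MCM3, MCM5, MCM6 and MCM7 include 0.

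Across the 10 genes, 4 fell and none rose, beside 14.2% lower and 15.3% higher among all genes tested, and the median log2 fold change was -0.16 beside 0.02. With TPM 1 was lower and 3 were higher, with a median of 0.08 beside 0.26 for all genes tested. With scaling to the listed reads 2 were lower and 1 was higher, with a median of -0.07 beside 0.12. The celastrol libraries lay entirely below the DMSO libraries for 4 of the 10, against 22.0% of all genes tested, and entirely above for 1 of the 10, against 25.3%. The summed FPKM of the 10 genes was 599, 561 and 524 with celastrol and 730, 650 and 681 with DMSO, without overlap (exact permutation p = 0.1). The genes also tended to follow the library. The first celastrol library was the highest of its group for 8 of the 10 genes, and the third was the lowest for 7, CDT1 and ORC1 among them.

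The order of mean levels per length (FPKM) differed between the groups. CDT1 and MCM3 changed places, as did MCM4 and MCM6. GMNN stood next to last with DMSO and in the middle with celastrol, and ORC1 stood lower in the order with celastrol. With celastrol the order was MCM7, MCM3, CDT1, MCM6, MCM4, GMNN, MCM5, ORC1, MCM2 and CDC6. The pairs MCM3 and CDT1, MCM6 and MCM4, MCM5 and ORC1, and ORC1 and MCM2 overlapped over the libraries, while the other neighbours did not. With DMSO, MCM7 was highest, then CDT1, MCM3, MCM4, MCM6, ORC1, MCM5, MCM2, GMNN and CDC6. MCM5 and MCM2 overlapped there, as did MCM2 and GMNN. The libraries of CDT1 and MCM3 thus overlapped with celastrol, and CDT1 stood above MCM3 in every library with DMSO.

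The scaling of the libraries shifted every gene at once. The authors' FPKM rest on a library total that was 1.04 to 1.05 times the listed reads with celastrol and 0.963 to 0.994 times with DMSO. With TPM the all-gene median log2 fold change was 0.26, beside 0.02 as deposited, and with scaling to the listed reads, or limma-voom on them, it was 0.12. Calls over all genes were 5266 higher and 813 lower with TPM, 3024 higher and 1295 lower with listed reads, and 3646 higher and 1461 lower with limma-voom, beside 1947 higher and 1797 lower on the deposited scale. TPM and the scalings to listed or nuclear reads multiply all genes of a library by 1 factor, so values relative to the median of all genes scarcely move under them. Over the 6 scalings CDT1 lay at -0.96 to -0.94, ORC1 at -0.56 to -0.55, MCM2 at -0.43 to -0.40, MCM4 at -0.33 to -0.32 and GMNN at 0.24 to 0.27 relative to that median. MCM7 lay at -0.20 to -0.08 and was nearest to 0 under quantile normalization, where MCM3 and MCM5 were at -0.15 each.

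**Figure D4:**
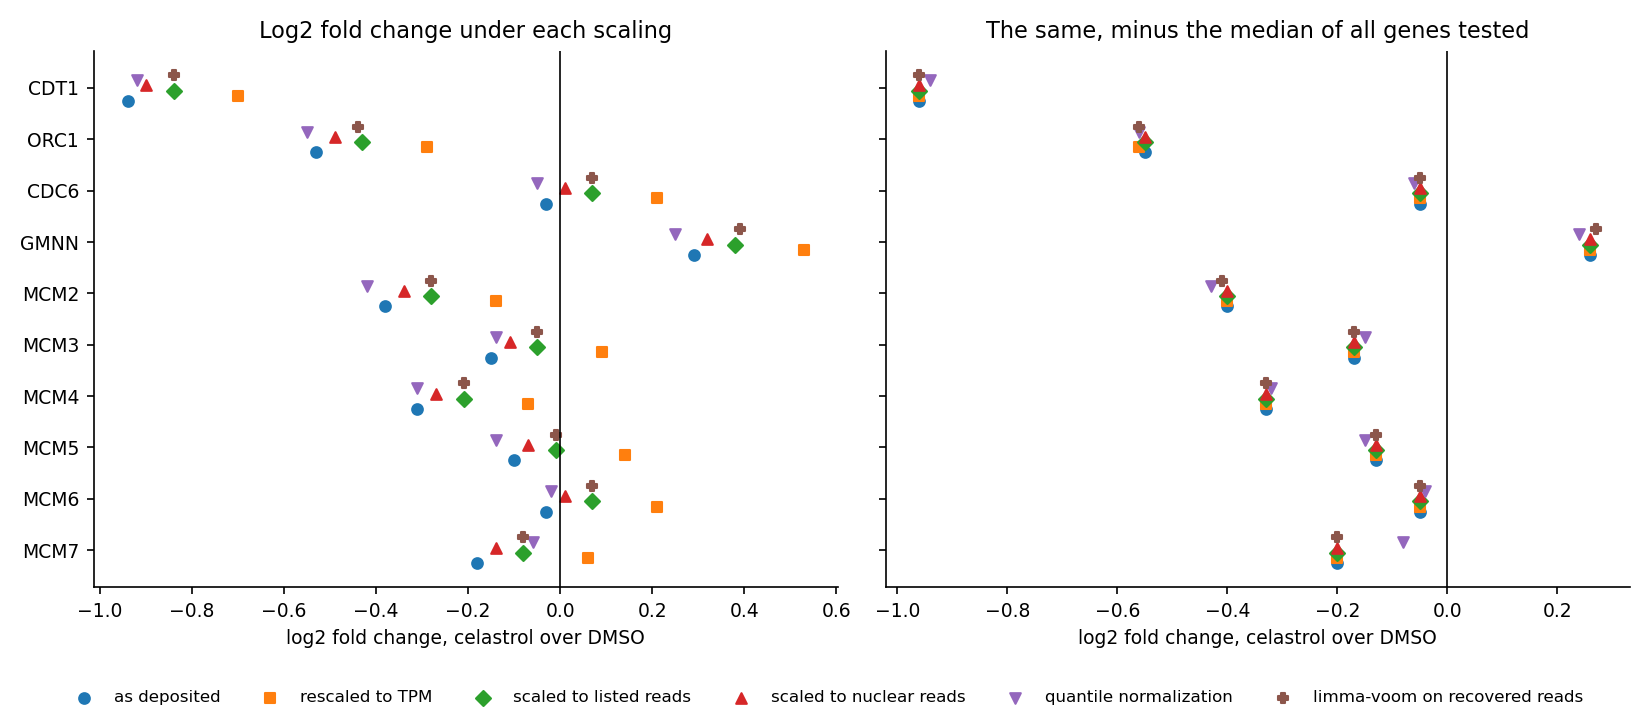
Log2 fold change, celastrol over DMSO, of each licensing gene under 6 scalings (marker shapes and colours), as fitted (left) and after subtracting the median of all genes tested (right). On the left, MCM3, MCM5, MCM6, MCM7 and CDC6 lie on both sides of 0. On the right, CDT1 stays between -0.96 and -0.94.

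Of 13 tested genes in the list of other factors that support or restrain licensing, 1 rose and 2 fell (median log2 fold change -0.05). The 23.1% called is below the 29.5% called among all genes tested. With TPM 3 were higher and 0 lower. MCMBP, which binds free MCM subunits, rose with a log2 fold change of 0.25 (adjusted p = 0.0251, limma). KAT7, the acetyltransferase that modifies histones at origins, fell with -0.31 (adjusted p = 0.0313), and CUL4A, a scaffold of the ligase that degrades CDT1, fell with -0.26 (adjusted p = 0.048). DTL, the substrate receptor of that ligase, had 20.4 ± 2.46 FPKM with celastrol and 21.6 ± 2.35 FPKM with DMSO, and SKP2 had 16.4 ± 1.03 FPKM with celastrol and 16.5 ± 1.90 FPKM with DMSO. Neither passed (log2 fold changes -0.08 and -0.01, adjusted p = 0.637 and 0.958). None of the 3 calls held in every fit that left out 1 library. In the fits without a call the log2 fold changes were 0.22 to 0.26 for MCMBP, -0.35 to -0.25 for KAT7 and -0.31 to -0.22 for CUL4A. MCMBP lost its call without celastrol 1, celastrol 2 or DMSO 3 (adjusted p 0.0822 to 0.0952), KAT7 without any library but celastrol 1 (0.0592 to 0.0929), and CUL4A without any library but DMSO 1 (0.056 to 0.162). Among 5 tested genes of other MCM-named proteins, MCMBP was the 1 called (20%, beside 29.5% of all genes tested). MCM10, a helicase activator, had a log2 fold change of 0.16 (adjusted p = 0.208, limma).

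Of 18 genes that fire licensed origins, 2 rose and 3 fell (median 0.01). The 27.8% called is close to the 29.5% called among all genes tested. DBF4, the activating subunit of the CDC7 kinase, rose and had 15.4 ± 0.611 FPKM with celastrol and 11.5 ± 1.18 FPKM with DMSO (log2 fold change 0.43, adjusted p = 0.0113, limma), and the call held in all 17 alternatives. CDC7 itself did not pass (-0.17, adjusted p = 0.302). CDC45, which joins the MCM ring in the active helicase, fell and had 85.3 ± 9.28 FPKM with celastrol and 111 ± 7.27 FPKM with DMSO (-0.38, adjusted p = 0.021). CCNE1, the cyclin that drives entry into S phase, fell (-0.40, adjusted p = 0.0164), CCNE2 did not pass (-0.21, adjusted p = 0.432), and DONSON, a helicase assembly factor, fell (-0.27, adjusted p = 0.0406). CDC45 lost its call without celastrol 2, celastrol 3, DMSO 1 or DMSO 3 (adjusted p 0.0525 to 0.0738), CCNE1 without celastrol 1, celastrol 2 or DMSO 3 (0.0541 to 0.0562), and DONSON without any library but DMSO 1 (0.0798 to 0.144). With TPM no gene of this list was lower and 7 were higher.

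At the replication fork, 2 of 30 genes rose and 6 fell (median -0.02), and the 26.7% called is close to the 29.5% among all genes tested. POLD4, the smallest subunit of DNA polymerase delta, rose (0.64, adjusted p = 0.00585, limma). LIG1, the ligase that joins Okazaki fragments, fell (-0.46, adjusted p = 0.0114), as did POLE, the catalytic subunit of the leading strand polymerase (-0.43, adjusted p = 0.014), and DNA2, a nuclease-helicase (-0.38, adjusted p = 0.0364). PCNA, the sliding clamp, had 109 ± 4.66 FPKM with celastrol and 103 ± 5.83 FPKM with DMSO and did not pass (0.08, adjusted p = 0.428). POLE lost its call without DMSO 3 (adjusted p = 0.0522), and DNA2 without celastrol 2, celastrol 3, DMSO 2 or DMSO 3 (0.0725 to 0.113). Without celastrol 2 or celastrol 3 the genes lower numbered 3, and without DMSO 3 they numbered 2. With TPM 11 were higher and 0 lower.

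Upstream of the licensing genes, 1 of 18 genes of the E2F, RB and cyclin D network rose and 2 fell (median -0.10), 16.7% called beside 29.5% of all genes tested. With TPM 5 were higher and 2 lower. CCND2, a D-type cyclin, fell (-0.66, adjusted p = 0.0024, limma), and CDK4, its partner kinase, had 33.5 ± 2.17 FPKM with celastrol and 47.0 ± 1.49 FPKM with DMSO (-0.49, adjusted p = 0.00293). E2F6, a repressor member of the E2F family, rose (0.38, adjusted p = 0.0115), a call lost without celastrol 2 (adjusted p = 0.0544). E2F1, an activator of licensing genes, had 17.4, 16.9 and 18.2 FPKM with celastrol, against 22.6, 16.7 and 19.0 FPKM with DMSO, and the groups overlapped (-0.14, adjusted p = 0.375). Of 10 other S-phase genes, 1 rose and 1 fell, 20% called beside 29.5% of all genes tested. With TPM 3 of them were higher and 1 lower. TYMS, which makes thymidylate, fell (-0.55, adjusted p = 0.00285).

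The G2 and mitosis list, whose genes peak when geminin is high, had 5 of 17 tested genes higher and 1 lower (median 0.17). The 35.3% called stands beside 29.5% of all genes tested, of which 15.3% rose and 14.2% fell. HMMR, a spindle assembly protein, had 31.3 ± 0.879 FPKM with celastrol and 21.1 ± 4.93 FPKM with DMSO (0.59, adjusted p = 0.0223, limma). BUB1, a checkpoint kinase, rose (0.45, adjusted p = 0.00686), as did CDC20, an activator of the anaphase-promoting complex (0.31, adjusted p = 0.0214). AURKB, the kinase of the chromosomal passenger complex, fell (-0.55, adjusted p = 0.00281). MKI67, the general marker of cycling cells, had 19.4 ± 2.02 FPKM with celastrol and 18.5 ± 0.565 FPKM with DMSO and did not pass (0.06, adjusted p = 0.632). HMMR and CDC20 lost their calls without DMSO 3 or any one celastrol library (adjusted p 0.0532 to 0.0721 and 0.0533 to 0.09), and without those libraries the count of genes higher was 2 each time. With TPM it was 13.

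Of 5 tested CDK inhibitor genes, 2 rose and none fell (median 0.16), where 15.3% of all genes tested rose and 14.2% fell. CDKN1A, which encodes p21, had 8.50, 7.29 and 8.11 FPKM with celastrol, against 4.83, 4.41 and 4.65 FPKM with DMSO. The groups were far apart (log2 fold change 0.77, SE 0.09, adjusted p = 0.000973, limma). CDKN2C, which encodes the CDK4 and CDK6 inhibitor p18, rose (0.44, adjusted p = 0.00498). Both calls held in all 17 alternatives.

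**Figure D5:**
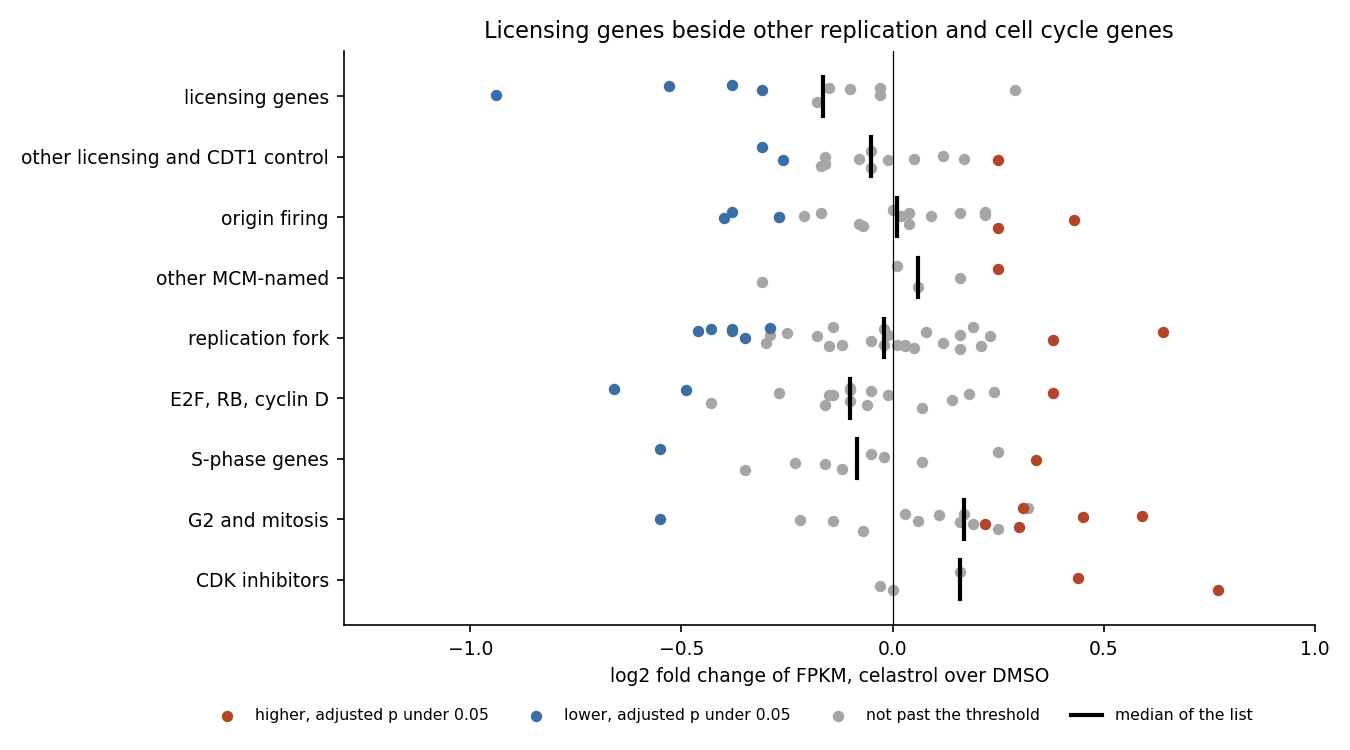
Log2 fold change of FPKM, celastrol over DMSO (horizontal axis), for the tested genes of each list (rows; vertical scatter within a row has no meaning). Red and blue points passed an adjusted p of 0.05 as higher or lower, grey points did not, and black bars are list medians. The licensing genes have a median of -0.16 and the G2 and mitosis genes 0.17.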

How the data were processed

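RNA from 6 SKM-1 libraries, 3 treated with celastrol and 3 given DMSO, was sequenced in bulk. Reads were aligned with HISAT2 2.0.5 and assigned to genes with featureCounts 1.5.0-p3 on GRCh38, per the submitters' processing notes. The authors deposited 1 table of FPKM. Its 58735 gene IDs and positions all match GENCODE 29. FPKM times gene length gave whole reads for 100% of values (tolerance 0.001 of a read), so depth was recovered. No source used here says whether counting was stranded.

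Genes with a mean FPKM of at least 1 (12685) were tested with limma 3.58.1 (R 4.3.3, trend) on log2(FPKM + 0.1), a scale that understates changes of low genes, with Benjamini-Hochberg adjustment over all of them. Ratios and sums within a library were compared by exact permutation tests (scipy 1.17.1). The 17 alternatives changed the pseudocount (1, 0.01), the filter (none, a mean of 5, protein-coding genes alone), the scaling (TPM, listed reads, nuclear reads, quantile), the test (limma-voom on recovered reads), the replicate block and each library. Groups follow the sample titles and the treatment field; the protocol text names celastrol for every library. The members and gene lists were chosen with earlier results of these data known. Named were all 10 members, up to 4 called genes of each other list by size of change, and a set of regulators whatever their result. A gene that this rule selects is not reported here.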

Additional observations from a re-analysis of the deposited data

How the results depend on the processing

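The CDT1 and ORC1 decreases kept their direction in all 17 alternatives, and so did those of MCM2 and MCM4 and the GMNN difference. Scaling had the widest effect. With TPM, 3 licensing genes were higher and 1 lower, their median log2 fold change turned to 0.08 and that of the summed MCM2 to MCM7 FPKM to 0.06. MCM3 (0.09), MCM5 (0.14), MCM6 (0.21, adjusted p = 0.0364, limma), MCM7 (0.06) and CDC6 (0.21, adjusted p = 0.0346, limma) also turned positive. With scaling to the listed reads, 1 was higher and 2 were lower, with a median of -0.07, and MCM6 and CDC6 turned to 0.07 each. With limma-voom, 1 was higher, the median was -0.07, and MCM6 and CDC6 were at 0.07 each. With nuclear reads MCM6 and CDC6 were at 0.01 each. TPM and the scalings to read totals multiply all genes of a library by 1 factor, by construction. A minimum mean of 5 FPKM and protein-coding genes alone each gave 1 licensing gene higher, GMNN. Leaving out 1 library gave 0 to 1 higher (1 without the second DMSO library) and 2 to 4 lower (2 without the second celastrol or the third DMSO library), and MCM6 ranged from -0.07 to 0.01. Over all genes, 1119 were higher and 1137 lower without the second celastrol library, and 1140 and 1003 without the third DMSO library. Without the second DMSO library 1948 were higher and 1766 lower. A lost call therefore need not mean that 1 library carried the difference. The log2 difference of the CDT1 to GMNN ratio stayed between -1.37 and -1.10 over 11 alternatives.

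Counts in the other lists ranged widely over the alternatives: 1 to 7 origin firing genes higher and 0 to 3 lower, 1 to 11 fork genes higher and 0 to 8 lower, 2 to 13 G2 and mitosis genes higher, 0 to 5 E2F and RB genes higher and 1 to 3 lower, 0 to 3 S-phase genes higher, 0 to 3 other licensing genes higher and 0 to 3 lower, and 0 to 4 other MCM-named genes higher. Replicate numbers showed no sign of pairing the samples: same-numbered libraries had correlations of deviations of -0.016, -0.033 and 0.034. Such correlations cannot exclude a paired design. With the numbers as a replicate block, 0 licensing genes were higher and 4 lower, and 1776 genes were higher and 1617 lower overall. Each licensing gene had at least 943 reads in every library. With 3 libraries a group, no exact permutation p could go below 0.1.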
